A study of Mus musculus with 21 samples.

Results

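The mitosis genes described here are 40 protein-coding genes of the M phase machinery, out of the 23337 gene symbols in a table of raw RNA-seq counts from sorted mouse B cells. They were chosen by name, with earlier results of these data known. All 40 had a row in the table. They were divided by role into 11 cyclins, kinases and their targets, 6 genes of the spindle checkpoint and of sister chromatid separation, 8 genes of the centromere, kinetochore and chromosomal passenger complex, 10 spindle motors and spindle proteins, and 5 genes of the spindle midzone and cytokinesis.

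The study profiled the transcriptomes of self-reactive B cells, with the Peyer's patches (PP), the lymphoid follicles of the small intestine, as its centre. The cells came from C57BL/6 mice of 8-12 weeks and were sorted from PP, mesenteric lymph nodes (mLN) and spleen, in 9 groups. B cells labelled BCL2 HEL pos had 3 libraries per tissue, numbered 922, 926 and 950. B cells labelled HEL pos had 3 per tissue, named 392, 399 and Pool, and those labelled HEL neg had 1 per tissue, named Pool. The labels expand neither HEL nor BCL2, name no allele, promoter or sort gate, and do not say whether a library is 1 mouse or how many mice a pool holds. Mice of 1 group shared a cage, so cage and group cannot be told apart.

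Genes of M phase are transcribed in waves. Cyclin A, cyclin B and Cdk1 drive entry into mitosis, the Aurora and Polo kinases build the spindle, and the spindle checkpoint holds the anaphase-promoting complex (APC/C) inactive until every kinetochore is attached. Most of these genes are silent in resting cells, where the MuvB core holds them off as part of the DREAM complex, and are switched on in late S and G2 phase by B-Myb and FoxM1 on the same core. In the follicles of lymphoid organs, the B cells that divide most are those of the germinal centres, which Peyer's patches carry all the time in response to gut antigens, while most follicular B cells rest.

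The promoters of such genes often carry a CHR element, bound by MuvB, and CCAAT boxes, bound by NF-Y. The 250 bases before the transcription start were read from RefSeq (GRCm38.p6), in which 34 of the 40 genes had an entry, and searched on both strands. The commoner form of the CHR letters, TTTGAA, was in 12 of the 34 (35.3%), against 16.3% of all 27025 promoters of the same length. The rarer form of the element, with a CpG in its middle and spelled TTCGAA, was in 2 (5.88%, against 1.34%). One or the other form was in 13 (38.2%, against 17.4%), the CCAAT box in 26 (76.5%, against 34.5%), and both kinds of element in 11 (32.4%, against 6.21%). These matches describe the letters in a window and are not shown to be sites. Printed here, because they belong to genes whose levels are described one by one in what follows, are the 7 promoters with CHR letters of Cdk1 (chr10:69352913-69353162 on the minus strand), Ccnb2 (chr9:70421555-70421804 on the minus strand), Mki67 (chr7:135716380-135716629 on the minus strand), Top2a (chr11:99024190-99024439 on the minus strand), Cdc20 (chr4:118437344-118437593 on the minus strand), Bub1b (chr2:118597961-118598210 on the plus strand) and Kif22 (chr7:127042421-127042670 on the minus strand). Each is written 5′ to 3′ on the gene's strand, and capitals mark the CHR letters and the CCAAT boxes, read on either strand.
Cdk1: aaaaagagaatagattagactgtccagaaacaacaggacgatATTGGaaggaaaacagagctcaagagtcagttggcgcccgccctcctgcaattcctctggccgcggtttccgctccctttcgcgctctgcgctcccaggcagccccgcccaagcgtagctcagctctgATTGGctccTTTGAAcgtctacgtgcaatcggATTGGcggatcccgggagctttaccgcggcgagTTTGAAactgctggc
Ccnb2: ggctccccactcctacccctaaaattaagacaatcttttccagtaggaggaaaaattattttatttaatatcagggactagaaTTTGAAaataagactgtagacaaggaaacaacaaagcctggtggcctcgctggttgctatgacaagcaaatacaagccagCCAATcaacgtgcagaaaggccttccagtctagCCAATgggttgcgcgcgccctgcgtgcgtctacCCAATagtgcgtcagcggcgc
Mki67: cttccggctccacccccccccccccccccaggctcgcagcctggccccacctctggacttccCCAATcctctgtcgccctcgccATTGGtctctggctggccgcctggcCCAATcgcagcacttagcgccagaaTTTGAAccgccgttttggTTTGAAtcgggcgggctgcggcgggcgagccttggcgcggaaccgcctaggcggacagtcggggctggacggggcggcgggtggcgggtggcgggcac
Top2a: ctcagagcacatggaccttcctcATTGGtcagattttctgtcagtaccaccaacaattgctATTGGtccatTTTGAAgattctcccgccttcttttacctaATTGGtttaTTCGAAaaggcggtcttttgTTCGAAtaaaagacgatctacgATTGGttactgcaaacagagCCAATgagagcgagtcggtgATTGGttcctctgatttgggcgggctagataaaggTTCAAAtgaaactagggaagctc
Cdc20: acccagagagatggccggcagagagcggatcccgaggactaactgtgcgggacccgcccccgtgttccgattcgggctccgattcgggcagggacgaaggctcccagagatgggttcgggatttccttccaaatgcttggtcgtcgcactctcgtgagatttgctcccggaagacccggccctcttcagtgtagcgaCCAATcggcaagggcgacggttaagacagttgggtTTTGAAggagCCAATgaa
Bub1b: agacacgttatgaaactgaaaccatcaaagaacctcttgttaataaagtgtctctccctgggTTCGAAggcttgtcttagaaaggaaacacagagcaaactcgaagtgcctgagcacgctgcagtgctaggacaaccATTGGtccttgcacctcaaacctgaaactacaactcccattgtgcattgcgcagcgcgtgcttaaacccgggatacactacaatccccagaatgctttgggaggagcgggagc
Kif22: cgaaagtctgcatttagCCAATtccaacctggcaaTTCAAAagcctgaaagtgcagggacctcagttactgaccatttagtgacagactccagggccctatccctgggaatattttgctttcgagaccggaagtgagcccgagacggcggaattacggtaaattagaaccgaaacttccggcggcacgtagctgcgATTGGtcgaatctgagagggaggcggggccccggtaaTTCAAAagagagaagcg
Top2a held 4 CHR matches and 6 CCAAT boxes in this window, the most among the 7. In Cdk1, Cdc20 and Kif22 the last base of a CHR match lay 10, 13 and 12 bases before the start. In Ccnb2 and Bub1b the match lay farther out, at 162 and 183 bases.

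Library totals ran from 5475131 to 11340876 counts, and between 35 and 40 of the mitosis genes had a count in each library. Levels are given as CPM, counts scaled to a common library size with TMM factors, on which scale the 3 counts that bound a gene with no count came to 0.259 to 0.507 CPM. All 8 B cell markers were measured, with a summed level of 10108 to 22994 CPM per library. Bcl2 is a survival gene whose symbol matches the BCL2 of the labels, which do not expand it. It had 134 to 181 CPM in BCL2 HEL pos, 48.6 to 100 CPM in HEL pos and 93.1 to 101 CPM in HEL neg libraries. Transcripts of the Y chromosome lay between 0 and 0.869 CPM, summed, in the 6 libraries named 392 and 399 and between 92.3 and 168 CPM in the other 15, and Xist had 79.3 to 608 CPM in all 21. PP libraries also differed in enterocyte and goblet cell markers (11 measured), whose sum was 40.2 to 180 CPM in BCL2 HEL pos, 254 to 1079 CPM in HEL pos and 1197 CPM in HEL neg PP, against 13.8 to 69.0 CPM elsewhere. Markers of intestinal crypt cells, stem and Paneth cell genes among the 7 measured, summed to 0.484 to 11.9 CPM in all libraries. The part of these differences in the results below was not tested.

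HEL neg libraries held the most mitosis gene RNA. The 40 genes summed to 128 to 145 CPM in BCL2 HEL pos PP, 152 to 182 CPM in HEL pos PP and 754 CPM in HEL neg PP. In mLN the sums were 132 to 177 CPM in BCL2 HEL pos, 182 to 231 CPM in HEL pos and 674 CPM in HEL neg cells. In spleen they were 139 to 164 CPM, 192 to 288 CPM and 598 CPM in the same 3 kinds of cells. The 18 libraries of both HEL pos kinds thus lay below the 3 HEL neg libraries without overlap, and within each tissue every BCL2 HEL pos library lay below every HEL pos library. Over the single HEL neg library of the same tissue, the mean sum of BCL2 HEL pos libraries had a ratio of 0.180 in PP, 0.231 in mLN and 0.247 in spleen, and that of HEL pos libraries 0.215, 0.317 and 0.393 in the same order of tissues. Over HEL pos libraries the ratio of BCL2 HEL pos libraries was 0.837 in PP, 0.729 in mLN and 0.629 in spleen. In bulk RNA, fewer dividing cells and less mitosis RNA per cell cannot be told apart.

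**Figure D1:**
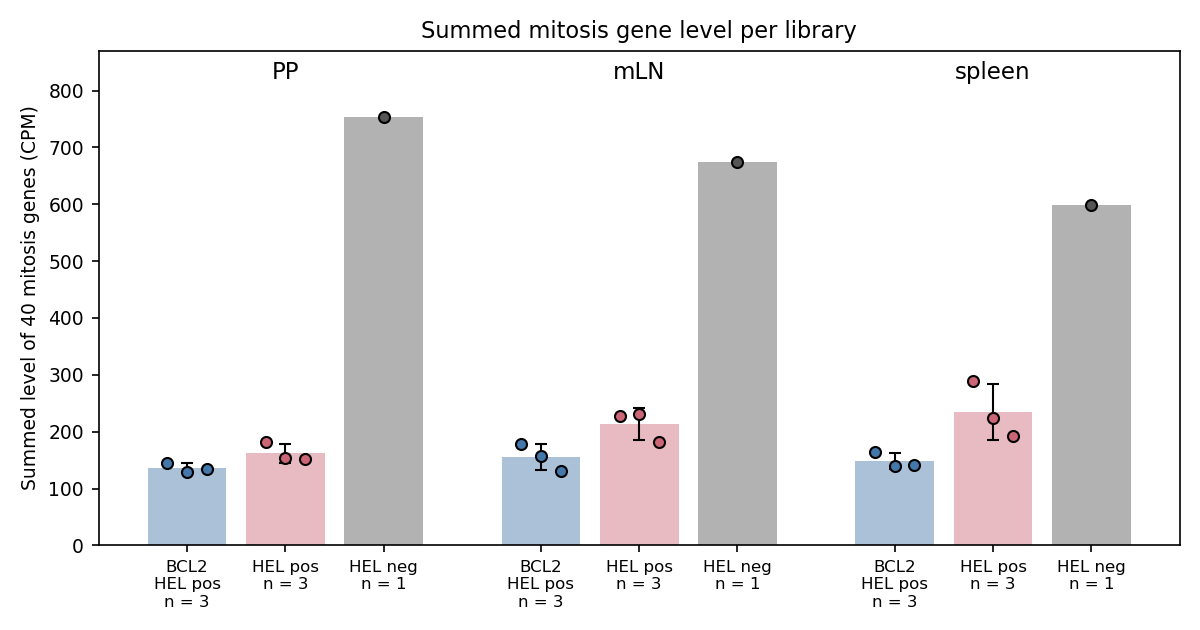
Summed level of the 40 mitosis genes in CPM (vertical axis) in each of the 21 libraries, by tissue and kind of cells. Bars are group means, error bars the SD of 3 libraries and points single libraries; the HEL neg libraries, 1 per tissue, sit between 598 and 754 CPM, above all others.

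The roles did not take equal shares of this sum. Cyclins, kinases and their targets made up 18.8% of it in BCL2 HEL pos, 23.7% in HEL pos and 35.5% in HEL neg cells. Genes of the centromere, kinetochore and passenger complex made up 44.3% in BCL2 HEL pos, 37.0% in HEL pos and 21.7% in HEL neg cells, with Cenpa alone averaging 26.5 CPM over the 21 libraries. The cyclin and kinase group summed to 20.7 to 35.6 CPM in BCL2 HEL pos, 31.7 to 82.1 CPM in HEL pos and 216 to 271 CPM in HEL neg libraries. Spindle motors and spindle proteins summed to 13.6 to 19.3 CPM in the 9 BCL2 HEL pos libraries, 21.7 to 54.5 CPM in the 9 HEL pos libraries and 105 to 124 CPM in the 3 HEL neg libraries. The 3 kinds of cells did not overlap in the spindle genes, whatever the tissue, whereas the ranges of both HEL pos kinds overlapped in the checkpoint genes (15.2 to 32.6 CPM in BCL2 HEL pos and 11.3 to 33.6 CPM in HEL pos, against 73.0 to 124 CPM in HEL neg libraries).

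**Figure D2:**
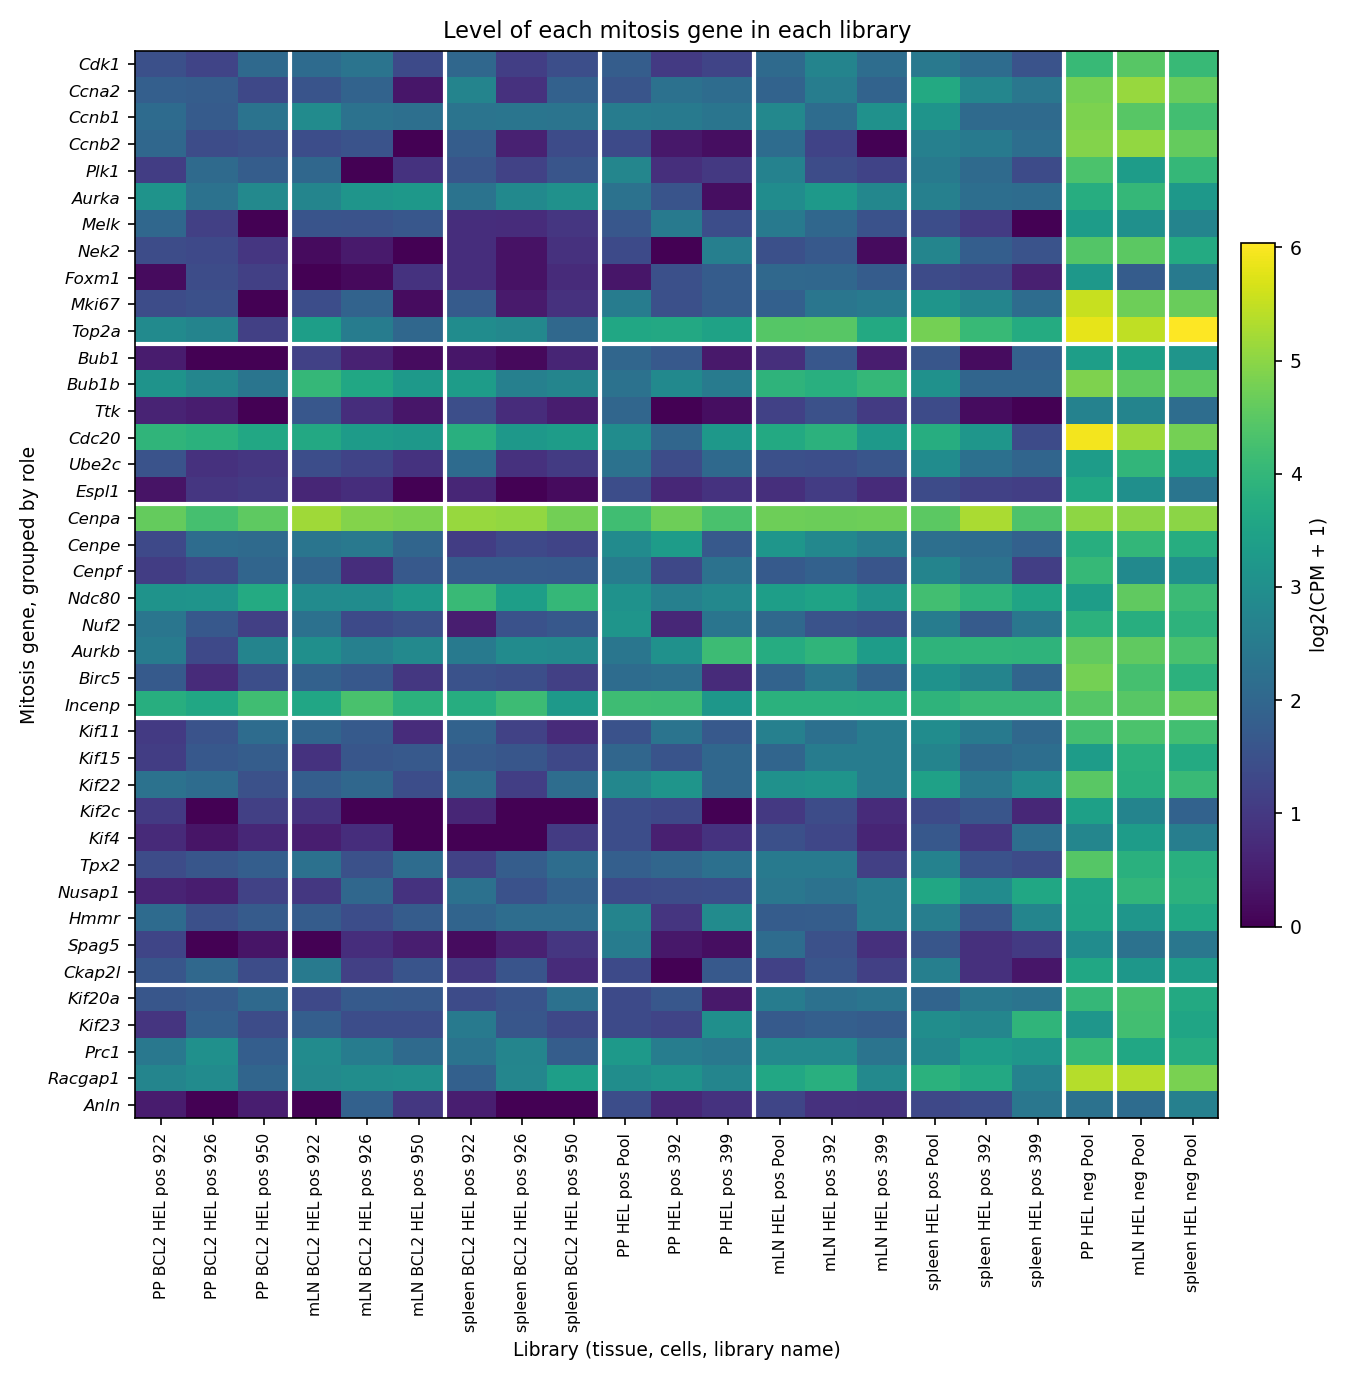
Level of each of the 40 mitosis genes (rows, grouped by role) in each of the 21 libraries (columns, BCL2 HEL pos left of HEL pos, HEL neg at the right), as log2(CPM + 1). The HEL neg columns are brighter for nearly every gene, while Cenpa is bright in all columns, at 17.1 CPM or more.

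HEL pos cells were compared with HEL neg cells over the 3 tissues, with tissue as a covariate, by edgeR's quasi-likelihood test with Benjamini-Hochberg adjustment over 11406 genes. At an adjusted p under 0.05, 29 of the 40 mitosis genes were lower in HEL pos cells and 0 were higher. Over all genes tested, 8.68% were called and 5.22% were called lower. Because the 40 genes were chosen with earlier results of these data known, such contrasts with all genes, here and below, are descriptions only. All 40 genes had a negative log2 fold change, with a median of −1.98 against 0.02 for all genes tested. For 32 genes all 9 HEL pos libraries lay below all 3 HEL neg libraries, which held for 4.23% of all genes tested. The 8 for which they overlapped were Aurka, Foxm1, Cenpa, Ndc80, Nusap1, Spag5, Kif23 and Anln. The count rests on the 3 HEL neg pools: 9 genes were called without the PP pool and 13 without the mLN pool, and 7 with only the HEL pos pools set against all 3. Of the 29 genes, 9 kept their call whichever library was left out, namely Cdk1, Ccna2, Ccnb1, Ccnb2, Mki67, Top2a, Kif11, Kif20a and Racgap1, and the other 20 lost it without at least 1 library, the PP HEL neg pool in every case.

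BCL2 HEL pos cells were compared with the same HEL neg libraries in a separate fit over 10987 genes. There, 38 of the 40 genes were lower in BCL2 HEL pos cells and 0 were higher, while 14.7% of all genes were called and 8.10% were called lower. The median log2 fold change of the 40 genes was −2.70, given here without that of all genes. For 37 genes all 9 BCL2 HEL pos libraries lay below all 3 HEL neg libraries, against 5.19% of all genes tested, and Aurka, Cenpa and Ndc80 overlapped. Here every HEL neg library was named Pool and no BCL2 HEL pos library was. The cells compared also differed in the BCL2 label as well as in the HEL label. The name Pool, BCL2 and HEL therefore cannot be told apart in this comparison. Both comparisons share the HEL neg libraries, so they are not independent of each other. Both also counted same-named libraries of different tissues as separate replicates, so their p-values may be too small. Leaving out any 1 library left between 33 and 39 genes called. Aurka, Incenp, Melk, Ttk and Anln lost their calls without the PP HEL neg pool. Aurka also lost its call without the mLN HEL neg pool (adjusted p = 0.127) and Anln without the spleen HEL neg pool (0.0796). Incenp lost its call without any 1 of the HEL neg pools and without several BCL2 HEL pos libraries, such as spleen 922 (0.0604).

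Among the cyclins, kinases and their targets, 11 of 11 were lower in BCL2 HEL pos cells and 9 of 11 in HEL pos cells, each against HEL neg cells. Mki67, which coats mitotic chromosomes and is the standard marker of dividing cells, had a lowest, median and highest level of 0, 1.66 and 2.78 CPM in BCL2 HEL pos and 1.80, 4.18 and 7.86 CPM in HEL pos libraries, against HEL neg levels of 45.3 CPM (PP), 25.1 CPM (mLN) and 24.2 CPM (spleen). Its log2 fold change was −4.65 ± 0.51 (SE, adjusted p = 1.27e-05) in BCL2 HEL pos and −2.95 ± 0.34 (adjusted p = 1.64e-04) in HEL pos cells. Every library of both HEL pos kinds lay below every HEL neg library, and PP had the highest HEL neg level. Cdk1, the kinase that drives mitosis, had 1.16, 1.79 and 3.99 CPM (lowest, median, highest) in BCL2 HEL pos and 1.05, 3.27 and 5.61 CPM in HEL pos libraries, against HEL neg levels of 15.9 CPM (PP), 21.1 CPM (mLN) and 15.7 CPM (spleen). Its log2 fold change was −2.90 ± 0.30 (adjusted p = 8.28e-06) in BCL2 HEL pos and −2.63 ± 0.33 (adjusted p = 3.23e-04) in HEL pos cells, and neither kind overlapped with HEL neg cells.

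The cyclin partners of Cdk1 were lower too. Ccna2, which encodes cyclin A2, had 0.280, 2.46 and 5.63 CPM (lowest, median, highest) in BCL2 HEL pos and 2.00, 3.74 and 11.7 CPM in HEL pos libraries, against HEL neg levels of 26.3 CPM (PP), 33.3 CPM (mLN) and 24.1 CPM (spleen); the log2 fold changes were −3.66 ± 0.40 (adjusted p = 1.17e-05) and −2.74 ± 0.33 (adjusted p = 2.29e-04). Ccnb2, for cyclin B2, had 0, 1.68 and 3.06 CPM in BCL2 HEL pos and 0, 1.57 and 5.24 CPM in HEL pos libraries, against HEL neg levels of 29.5 CPM (PP), 32.7 CPM (mLN) and 23.6 CPM (spleen), with log2 fold changes of −4.16 ± 0.40 (adjusted p = 2.93e-06) and −4.11 ± 0.60 (adjusted p = 9.17e-04). The groups did not overlap for either cyclin, and the spleen Pool library had the highest HEL pos level of both. Ccnb1, for cyclin B1, was called in both comparisons too, at −2.51 ± 0.24 in BCL2 HEL pos and −2.15 ± 0.30 in HEL pos cells.

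Top2a, the topoisomerase that disentangles sister chromatids, had 1.21, 5.59 and 9.50 CPM (lowest, median, highest) in BCL2 HEL pos and 10.1, 12.2 and 26.3 CPM in HEL pos libraries, against HEL neg levels of 55.8 CPM (PP), 43.1 CPM (mLN) and 64.9 CPM (spleen). The 3 kinds of cells formed 3 separate ranges. Its log2 fold change was −3.43 ± 0.32 (adjusted p = 2.73e-06) in BCL2 HEL pos and −1.83 ± 0.23 (adjusted p = 3.53e-04) in HEL pos cells. Nek2, a centrosome kinase, had the smallest p among the mitosis genes in BCL2 HEL pos cells, where the lowest, median and highest levels were 0, 0.721 and 1.66 CPM. HEL pos libraries had 0, 1.92 and 5.69 CPM of Nek2, against HEL neg levels of 20.6 CPM (PP), 21.8 CPM (mLN) and 12.0 CPM (spleen), and the log2 fold changes were −4.88 ± 0.43 (adjusted p = 1.54e-06) and −3.08 ± 0.65 (adjusted p = 0.0100). Neither kind reached the HEL neg level. The call in HEL pos cells did not hold without the PP or the mLN HEL neg library (adjusted p = 0.102 and 0.139).

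Fewer of the remaining genes of this role passed in both comparisons. Plk1, the Polo kinase, was lower in BCL2 HEL pos (−3.02 ± 0.46) and in HEL pos cells (−2.31 ± 0.52), and Aurka, the centrosomal Aurora kinase, had the smallest changes of this role in BCL2 HEL pos cells (−0.91 ± 0.26, adjusted p = 0.0246) with −1.62 ± 0.47 (adjusted p = 0.0450) in HEL pos cells. Foxm1, the transcription factor of the late cell cycle, had 0, 0.672 and 1.64 CPM (lowest, median, highest) in BCL2 HEL pos and 0.285, 1.80 and 3.14 CPM in HEL pos libraries, against HEL neg levels of 8.38 CPM (PP), 2.40 CPM (mLN) and 4.55 CPM (spleen). It was called in BCL2 HEL pos (−3.02 ± 0.57, adjusted p = 0.00203) and not in HEL pos cells (−1.60 ± 0.59, adjusted p = 0.106), whose mLN libraries lay at 2.40 to 3.14 CPM beside the 2.40 CPM of the mLN HEL neg library. Melk, a mitotic kinase of the AMPK family, was likewise called in BCL2 HEL pos (−2.47 ± 0.55) and missed the threshold in HEL pos cells (−1.81 ± 0.55, adjusted p = 0.0550).

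Of the checkpoint and separation genes, 6 of 6 were lower in BCL2 HEL pos and 5 of 6 in HEL pos cells. Cdc20, the APC/C activator that the checkpoint restrains, had 8.27, 11.4 and 14.5 CPM (lowest, median, highest) in BCL2 HEL pos and 1.62, 8.27 and 13.8 CPM in HEL pos libraries, against HEL neg levels of 60.5 CPM (PP), 34.6 CPM (mLN) and 26.3 CPM (spleen). Its log2 fold change was −1.84 ± 0.18 (adjusted p = 4.16e-06) in BCL2 HEL pos and −2.32 ± 0.41 (adjusted p = 0.00348) in HEL pos cells; the groups did not overlap, and without the PP HEL neg library the second call was lost (adjusted p = 0.0885). Bub1b, for the checkpoint protein BubR1, had 4.06, 7.66 and 15.4 CPM in BCL2 HEL pos and 2.94, 6.29 and 15.2 CPM in HEL pos libraries, against HEL neg levels of 28.3 CPM (PP), 22.3 CPM (mLN) and 22.3 CPM (spleen). Its log2 fold changes were −1.69 ± 0.26 (adjusted p = 3.52e-04) and −1.91 ± 0.33 (adjusted p = 0.00290), and the highest HEL pos libraries were those of mLN. The checkpoint kinase gene Bub1 had a median of 0.289 CPM in BCL2 HEL pos libraries and was at −4.81 ± 0.57, against −2.56 ± 0.59 in HEL pos cells. Espl1, for separase, the protease that cuts cohesin, was at −3.96 ± 0.54 in BCL2 HEL pos and −2.73 ± 0.45 in HEL pos cells, and Ube2c, the APC/C ubiquitin-conjugating enzyme, at −2.95 ± 0.39 and −1.96 ± 0.40. Ttk, for the checkpoint kinase Mps1, was called in BCL2 HEL pos (−2.83 ± 0.61) and not in HEL pos cells (−2.23 ± 0.81, adjusted p = 0.101).

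The centromere, kinetochore and passenger genes changed least, with 6 of 8 lower in BCL2 HEL pos and 4 of 8 in HEL pos cells. Cenpa, the histone H3 variant that marks centromeres through the whole cell cycle, had 18.3, 27.9 and 35.4 CPM (lowest, median, highest) in BCL2 HEL pos and 17.1, 24.7 and 37.8 CPM in HEL pos libraries, against HEL neg levels of 31.2 CPM (PP), 30.9 CPM (mLN) and 30.6 CPM (spleen). The groups overlapped, and neither comparison called it (−0.20 ± 0.16, adjusted p = 0.460, in BCL2 HEL pos and −0.37 ± 0.20, adjusted p = 0.271, in HEL pos cells). Ndc80, the microtubule-binding kinetochore subunit, had 6.57, 8.27 and 16.0 CPM in BCL2 HEL pos and 5.24, 9.43 and 17.7 CPM in HEL pos libraries, against HEL neg levels of 9.22 CPM (PP), 22.6 CPM (mLN) and 16.3 CPM (spleen). It overlapped in both comparisons and was not called in either (−0.72 ± 0.28, adjusted p = 0.0949, and −0.72 ± 0.26, adjusted p = 0.0941).

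Its partner in the Ndc80 complex, Nuf2, was called in both, at −2.71 ± 0.38 in BCL2 HEL pos and −2.02 ± 0.46 in HEL pos cells. The passenger complex was split. Birc5, for survivin, had 0.682, 1.74 and 2.66 CPM (lowest, median, highest) in BCL2 HEL pos and 0.675, 3.42 and 7.40 CPM in HEL pos libraries, against HEL neg levels of 26.3 CPM (PP), 18.3 CPM (mLN) and 13.6 CPM (spleen). Its log2 fold changes were −3.48 ± 0.31 (adjusted p = 1.81e-06) and −2.46 ± 0.41 (adjusted p = 0.00242, and 0.0669 without the PP HEL neg library), with no overlap. Incenp, the scaffold of the same complex, had smaller changes (−0.69 ± 0.22, adjusted p = 0.0420, in BCL2 HEL pos and −0.60 ± 0.21, adjusted p = 0.0887, in HEL pos cells), and Aurkb, its kinase, was called in BCL2 HEL pos (−2.05 ± 0.27) and not in HEL pos cells (−0.88 ± 0.31, adjusted p = 0.0846). The kinetochore proteins Cenpe, a motor, and Cenpf were called in both comparisons, at −2.47 ± 0.29 and −2.18 ± 0.38 in BCL2 HEL pos and −1.43 ± 0.34 and −1.56 ± 0.43 in HEL pos cells.

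All 10 spindle motors and spindle proteins were lower in BCL2 HEL pos cells and 8 of 10 in HEL pos cells. Kif22, the chromokinesin Kid, had 1.16, 3.02 and 3.83 CPM (lowest, median, highest) in BCL2 HEL pos and 3.04, 6.63 and 9.91 CPM in HEL pos libraries, against HEL neg levels of 21.6 CPM (PP), 12.8 CPM (mLN) and 16.1 CPM (spleen). Its log2 fold changes were −2.63 ± 0.30 (adjusted p = 1.74e-05) and −1.38 ± 0.32 (adjusted p = 0.0155), the second lost without the PP or the mLN HEL neg library (adjusted p = 0.183 and 0.0546), although no HEL pos library reached a HEL neg one. Kif11, the motor that pushes spindle poles apart, was at −3.27 ± 0.36 and −2.22 ± 0.30, and Tpx2, the activator of Aurora A, at −2.67 ± 0.30 and −2.29 ± 0.39, in BCL2 HEL pos and HEL pos cells. The kinesins Kif15, Kif2c (a microtubule depolymerase) and Kif4, the microtubule binder Nusap1 and the spindle protein Ckap2l were called in both comparisons as well. Hmmr and Spag5, spindle-associated proteins, were called in BCL2 HEL pos (−1.92 ± 0.27 and −3.30 ± 0.62) and not in HEL pos cells (−1.31 ± 0.45, adjusted p = 0.0819, and −1.52 ± 0.69, adjusted p = 0.189).

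Of the midzone and cytokinesis genes, 5 of 5 were lower in BCL2 HEL pos and 3 of 5 in HEL pos cells. Racgap1, the GTPase-activating subunit of centralspindlin, had 2.60, 6.15 and 9.40 CPM (lowest, median, highest) in BCL2 HEL pos and 5.45, 7.64 and 13.6 CPM in HEL pos libraries, against HEL neg levels of 40.1 CPM (PP), 40.05 CPM (mLN) and 27.5 CPM (spleen). Its log2 fold changes were −2.62 ± 0.26 (adjusted p = 4.99e-06) and −2.01 ± 0.27 (adjusted p = 5.33e-04), with no overlap. Kif23, the motor subunit of the same complex, was called in BCL2 HEL pos (−2.49 ± 0.35) and not in HEL pos cells (−1.60 ± 0.51, adjusted p = 0.0646), where the spleen 399 library stood at 14.6 CPM. Kif20a, a cytokinesis kinesin, and Prc1, which bundles midzone microtubules, were lower in both comparisons. Anln, for the contractile ring protein anillin, was called in BCL2 HEL pos cells alone (−3.37 ± 0.81; in HEL pos cells −1.54 ± 0.50, adjusted p = 0.0656). Where a gene was called in BCL2 HEL pos and not in HEL pos cells, that difference was not tested in these fits.

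**Figure D3:**
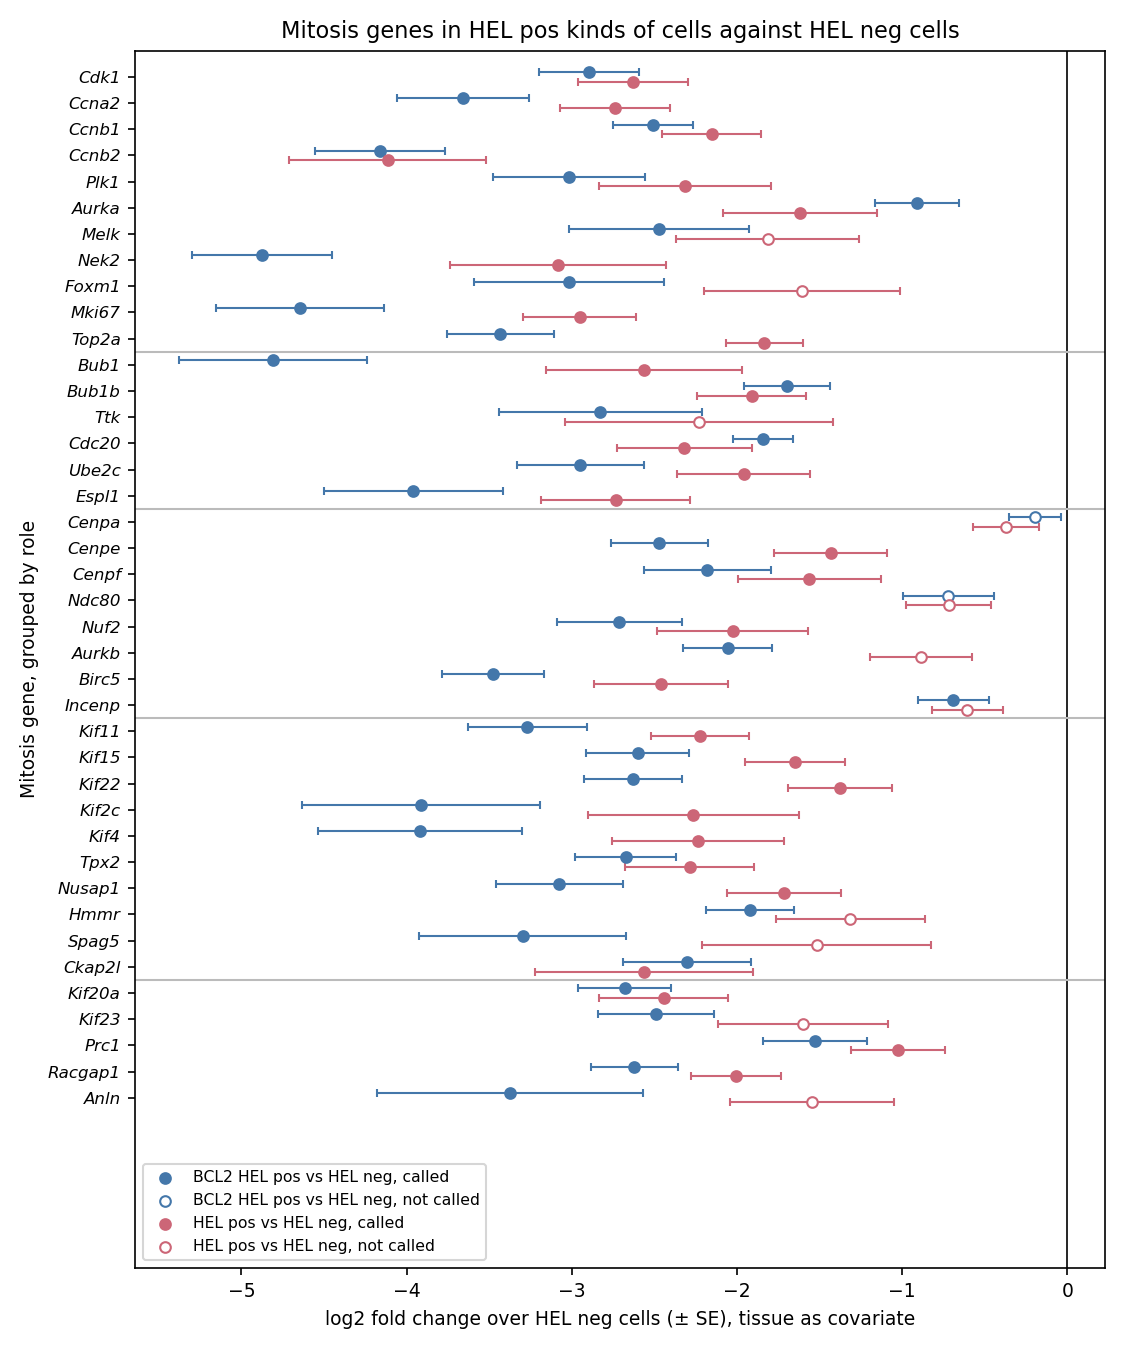
Log2 fold change (± SE, horizontal axis) of each mitosis gene in BCL2 HEL pos (blue) and HEL pos cells (red) over HEL neg cells, grouped by role, with filled points for an adjusted p under 0.05. All points lie left of 0, and Cenpa is nearest to it, at −0.20 and −0.37.

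Markers of germinal centre B cells moved with the mitosis genes in these comparisons. The 8 measured markers summed to 103 to 170 CPM in BCL2 HEL pos and 79.4 to 158 CPM in HEL pos libraries, against HEL neg levels of 1004 CPM (PP), 653 CPM (mLN) and 415 CPM (spleen), the order in which the HEL neg mitosis sums fell too. Of these markers, 8 of 8 were lower in BCL2 HEL pos and 7 of 8 in HEL pos than in HEL neg cells. Of all genes tested, 8.10% and 5.22% were called lower. Between both HEL pos kinds the sums did not move together. The marker sum averaged 140 CPM in BCL2 HEL pos and 128 CPM in HEL pos libraries, and the mitosis sum 146 and 204 CPM. The marker Gcet2 had a median of 0 CPM in the HEL pos libraries of PP and mLN. The part of these markers in the mitosis gene results was not tested.

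**Figure D4:**
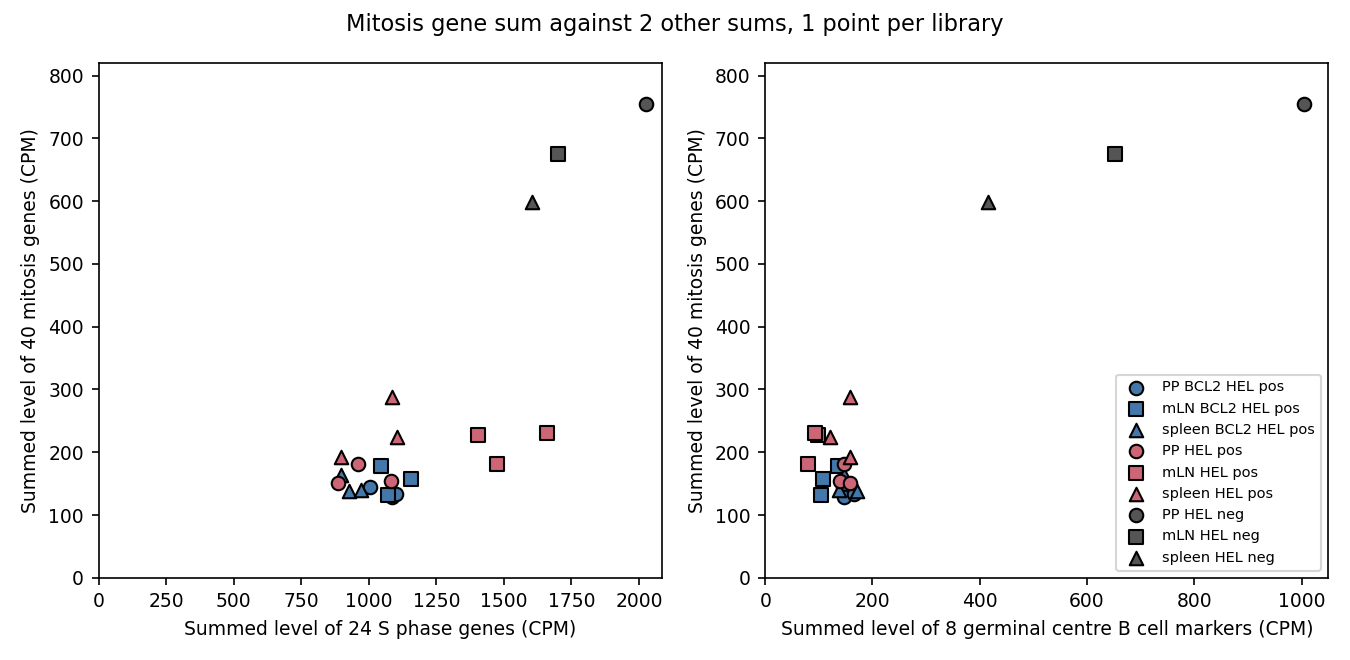
Summed level of the 40 mitosis genes (vertical axis, CPM) against the summed level of 24 S phase genes (left, CPM) and of 8 germinal centre B cell markers (right, CPM), 1 point per library, colour for the kind of cells and shape for the tissue. The 3 HEL neg libraries stand apart in both panels, and the 3 HEL pos mLN libraries (1405 to 1659 CPM of S phase genes) stand apart only in the left one.

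The HEL pos pools can be set beside the HEL neg pools tissue by tissue, 1 library each and with no replicate check. In PP, 40 of 40 mitosis genes were lower in the HEL pos pool, with a median HEL neg over HEL pos ratio of 5.07. In mLN 39 of 40 were lower (median ratio 3.49), Foxm1 being the exception with 3.14 CPM in the HEL pos and 2.40 CPM in the HEL neg pool. In spleen 39 of 40 were lower as well (median ratio 2.15), Ndc80 being the exception with 17.7 CPM in the HEL pos and 16.3 CPM in the HEL neg pool. The largest ratio in PP was that of Foxm1 (2 counts in the HEL pos and 50 in the HEL neg pool), and the smallest was that of Incenp (17.0 CPM and 20.8 CPM).

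BCL2 HEL pos cells were next compared with HEL pos cells within each tissue, 3 libraries against 3, in a fit of 18 libraries and 11419 genes in which 39 mitosis genes were tested and Espl1 fell below the filter on low counts. In PP, 0 of 39 were called at an adjusted p under 0.05, 7 had an unadjusted p under 0.05, and DESeq2 called 4; over all genes 10.1% were called and 4.74% were called lower. In mLN 2 were lower and 0 higher (all genes: 11.7% called, 5.90% called lower). In spleen 3 were lower and 0 higher (all genes: 9.37% called, 4.82% called lower), and 17 had an unadjusted p under 0.05. Granulocyte markers moved with the spleen comparison: the 7 measured summed to 0 to 0.577 CPM in spleen BCL2 HEL pos and 51.0 to 193 CPM in spleen HEL pos libraries, and 4 of the 4 tested (S100a8, S100a9, Ngp and Camp) were lower in BCL2 HEL pos cells. Erythroid markers summed to 3.36 to 57.4 CPM in spleen BCL2 HEL pos and 44.4 to 91.6 CPM in spleen HEL pos libraries, with Hba-a1, Hba-a2, Hbb-b1 and Hbb-b2 at 0, and 0 of 4 tested were called (edgeR). In mLN, T cell markers summed to 3.87 to 7.55 CPM in BCL2 HEL pos and 11.7 to 51.6 CPM in HEL pos libraries. Cd3d, Cd8a, Cd3e and Cd3g were called lower in BCL2 HEL pos cells of mLN, while Cd3e was called higher in those of spleen. The part of these markers in the mitosis gene results was not tested. The share of mitosis genes called, both directions together, was below that of all genes in each tissue. The share called lower was above that of all genes only in spleen, where it rests on 3 genes. The medians of the 39 genes were −0.60 in PP, −0.61 in mLN and −1.07 in spleen, and 30, 33 and 34 of the 39 were negative in these tissues. No all-gene value is given here for these medians and signs, nor for the unadjusted and DESeq2 counts. They are therefore printed without a background and are descriptions only. Each of the called genes lost its call when some single library was left out.

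Top2a was called in spleen and in mLN. In spleen it had 6.64, 6.02 and 3.09 CPM in BCL2 HEL pos libraries 922, 926 and 950, against 26.3, 15.8 and 12.2 CPM in HEL pos libraries Pool, 392 and 399 (−1.77 ± 0.47, adjusted p = 0.0211). In mLN it had 9.50, 4.84 and 3.08 CPM in BCL2 HEL pos libraries 922, 926 and 950, against 20.8, 21.1 and 11.7 CPM in HEL pos libraries Pool, 392 and 399 (−1.61 ± 0.47, adjusted p = 0.0283). The groups did not overlap in either tissue, nor in PP, where the BCL2 HEL pos libraries had 6.38, 5.59 and 1.21 CPM and the HEL pos libraries 11.1, 11.5 and 10.1 CPM. Over 24 alternatives the adjusted p in spleen ran from 1.16e-05 to 0.0985 and that in mLN from 9.25e-05 to 0.151. The spleen call was lost without HEL pos Pool, BCL2 HEL pos 926 or BCL2 HEL pos 950 of that tissue, and the mLN call without HEL pos Pool or 392 or BCL2 HEL pos 926 or 950.

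Nusap1 and Anln were called in spleen and Foxm1 in mLN. Nusap1 had 3.75, 1.85 and 2.69 CPM in spleen BCL2 HEL pos libraries 922, 926 and 950, against 11.0, 6.51 and 11.1 CPM in spleen HEL pos libraries Pool, 392 and 399 (−1.78 ± 0.50, adjusted p = 0.0289). Anln had 0.433, 0 and 0 CPM in the same BCL2 HEL pos libraries, which is 3 counts in all, against 1.48, 1.70 and 4.27 CPM in the HEL pos libraries, 53 counts in all. Neither gene overlapped. The ratio of the Anln sums was 0.0533, with an exact 95% interval of 0.0107 to 0.164 that covers counting error only; its fitted log2 fold change of −4.04 ± 1.21 (adjusted p = 0.0389) depends on the prior count. Foxm1 had 0, 0.121 and 0.841 CPM in mLN BCL2 HEL pos libraries 922, 926 and 950, against 3.14, 3.06 and 2.40 CPM in mLN HEL pos libraries Pool, 392 and 399 (−3.12 ± 0.97, adjusted p = 0.0407), also without overlap. Over the 24 alternatives the calls of Foxm1 and Anln were lost in 13 and 11, where adjusted p reached 0.179 and 0.169, and the call of Nusap1 in 5 (up to 0.133).

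Mki67 and Cdk1 showed no called difference between the 2 kinds. Mki67 had 2.31, 0.347 and 0.806 CPM in spleen BCL2 HEL pos libraries 922, 926 and 950, against 7.86, 5.73 and 3.39 CPM in spleen HEL pos libraries Pool, 392 and 399 (−2.29 ± 0.88, adjusted p = 0.105). Those groups did not overlap. In mLN it had 1.68, 2.78 and 0.140 CPM against 2.64, 4.18 and 4.66 CPM in the same libraries, and in PP 1.66, 1.77 and 0 CPM against 4.85, 1.80 and 2.36 CPM. The mLN groups overlapped and the PP groups did not, by a margin of 1 library each at 1.77 CPM (BCL2 HEL pos) and 1.80 CPM (HEL pos); the log2 fold changes were −1.49 ± 0.88 in PP and −1.29 ± 0.85 in mLN (adjusted p = 0.298 and 0.368). Cdk1 overlapped in every tissue, and its log2 fold changes were 0.37 ± 0.57 in PP, −0.46 ± 0.53 in mLN and −0.71 ± 0.55 in spleen (adjusted p = 0.716, 0.641 and 0.468).

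Whether the difference between the 2 kinds of cells changed with tissue was tested with interaction terms. No mitosis gene was called for PP against spleen, mLN against spleen or PP against mLN, where 0.00876%, 0.385% and 0.00876% of all genes were called; 1, 1 and 2 mitosis genes had an unadjusted p under 0.05, and DESeq2 called 0. The larger median in spleen is therefore not shown to differ from those in PP and mLN.

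**Figure D5:**
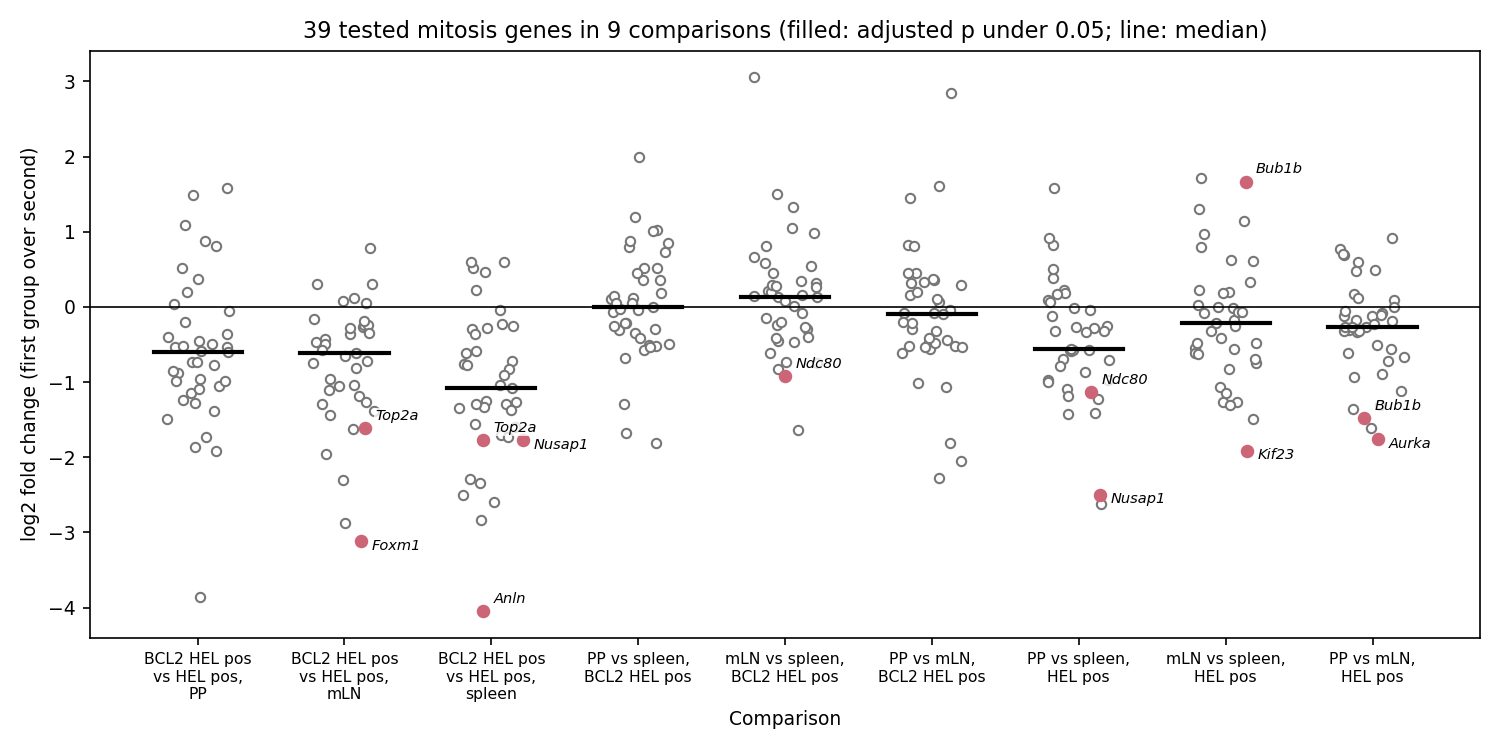
Log2 fold change (vertical axis) of the 39 tested mitosis genes in the 3 comparisons of BCL2 HEL pos with HEL pos cells and the 6 comparisons between tissues, with the first-named group on top of the ratio. Filled points have an adjusted p under 0.05 and black lines are medians, which lie between −1.07 (BCL2 HEL pos over HEL pos, spleen) and 0.14 (mLN over spleen, BCL2 HEL pos).

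Between tissues, between 0 and 2 mitosis genes were called within either kind of HEL pos cells. In HEL pos cells the granulocyte markers also differed, with sums of 0.300 to 1.01 CPM in PP and 0 to 0.252 CPM in mLN, against 51.0 to 193 CPM in spleen. T cell markers summed to 9.56 to 13.7 CPM in PP, 11.7 to 51.6 CPM in mLN and 4.33 to 15.6 CPM in spleen HEL pos libraries. Cd3e, Cd8a, Cd3d and Cd247 were called higher in mLN than in spleen, and Cd247 lower in PP than in mLN. The part of the granulocyte and T cell markers was not tested. In HEL pos cells PP against spleen called 2 genes, both lower in PP, while 15.4% of all genes were called. Nusap1 had 1.57, 1.65 and 1.69 CPM in PP libraries Pool, 392 and 399, against 11.0, 6.51 and 11.1 CPM in spleen (−2.50 ± 0.53, adjusted p = 0.00255). Ndc80 had 7.42, 5.24 and 6.08 CPM in the PP libraries, against 17.7, 14.1 and 10.5 CPM in spleen (−1.13 ± 0.30, adjusted p = 0.0117). The tissues did not overlap for either gene. Nusap1 lost its call in 1 of 25 alternatives (adjusted p up to 0.0679) and in none that left out 1 library, with mLN in between at 4.28, 3.87 and 4.80 CPM. Ndc80 lost its call in 4 of 25 (up to 0.0905), among them leaving out the spleen Pool library. With library number as a block, which pairs PP and spleen libraries of the same name, 4 mitosis genes were called, all lower in PP, and 2385 of all genes, against 1756 without the block. The count of called genes without the block became 1 without spleen Pool, 4 without PP Pool and 5 without PP 399.

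In HEL pos cells mLN against spleen called 1 gene higher and 1 lower, with 24.5% of all genes called. Bub1b had 14.2, 13.0 and 15.2 CPM in mLN libraries Pool, 392 and 399, against 7.29, 2.94 and 2.95 CPM in spleen (1.67 ± 0.37, adjusted p = 0.00215), and Kif23 had 2.26, 2.55 and 2.40 CPM in mLN, against 6.83, 5.89 and 14.6 CPM in spleen (−1.91 ± 0.61, adjusted p = 0.0239). Neither overlapped. Bub1b was called under all 25 alternatives (adjusted p of 1.47e-04 to 0.0170), whereas Kif23 lost its call, leaving 1 gene, without any of the 3 mLN libraries or the spleen 399 library (up to 0.154).

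PP against mLN in HEL pos cells called 2 genes, both lower in PP, with 8.86% of all genes called. Bub1b had 3.85, 6.29 and 4.73 CPM in PP libraries Pool, 392 and 399, against the mLN values above (−1.48 ± 0.37, adjusted p = 0.0183). Aurka had 3.85, 1.95 and 0.169 CPM in PP, against 6.67, 8.56 and 5.99 CPM in mLN (−1.76 ± 0.53, adjusted p = 0.0417). Neither gene overlapped between the tissues. Without PP 399 or mLN 399 no gene was called; the call of Bub1b was lost in 5 and that of Aurka in 10 of 25 alternatives, with adjusted p up to 0.305 and 0.221. The mLN and PP comparisons share the mLN libraries.

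In BCL2 HEL pos cells 1 call was made between tissues. PP against spleen called 0 mitosis genes (2 at an unadjusted p under 0.05, DESeq2 1; 7.34% of all genes), and PP against mLN called 0 (3 at an unadjusted p under 0.05, DESeq2 0; 1.16% of all genes). For mLN against spleen 1 gene was lower, with 10.0% of all genes called. This was Ndc80, with 6.57, 6.65 and 8.27 CPM in mLN libraries 922, 926 and 950, against 16.0, 9.38 and 15.3 CPM in spleen (−0.92 ± 0.29, adjusted p = 0.0475). The tissues did not overlap, but the call was lost in 13 of 25 alternatives, with adjusted p up to 0.177. With library number as a block 2 genes were called, 1 lower in mLN (Ndc80) and 1 higher, and 1773 of all genes, against 1142 without the block. Bub1b, which separated the tissues in HEL pos cells, had 7.66, 5.86 and 4.06 CPM in PP, 15.4, 11.1 and 8.69 CPM in mLN and 9.09, 5.21 and 5.78 CPM in spleen BCL2 HEL pos libraries 922, 926 and 950, with no call in the fit without the block.

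S phase genes, which act just before mitosis in DNA replication, were summed for comparison. The 24 S phase genes summed to 899 to 1154 CPM in BCL2 HEL pos libraries of the 3 tissues and to 1605 to 2028 CPM in HEL neg libraries. In HEL pos cells they summed to 885 to 1084 CPM in PP, 1405 to 1659 CPM in mLN and 898 to 1105 CPM in spleen. Between HEL pos tissues 8 of 24 were higher in mLN than in spleen and 0 lower, where 24.5% of all genes were called in either direction. In PP 9 of 24 were lower than in mLN and 0 higher, where 8.86% of all genes were called. Mcm6, a subunit of the replicative helicase, had 147 to 169 CPM in mLN, against 74.9 to 103 CPM in spleen HEL pos libraries (0.84 ± 0.14, adjusted p = 9.39e-05). The mitosis genes in the same mLN libraries summed to 182 to 231 CPM, within the 192 to 288 CPM of spleen but for the lowest library. Against HEL neg cells, 19 of 24 S phase genes were lower in BCL2 HEL pos and 14 of 24 in HEL pos cells, with medians of −0.97 and −0.76. Of all genes tested, 8.10% and 5.22% were called lower in these comparisons. Rrm2, the ribonucleotide reductase subunit made in S phase, was lower in both, at −3.31 ± 0.21 and −2.26 ± 0.26. The difference between the 2 lists was not tested.

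Another 71 genes with roles in mitosis, named from general knowledge and not among the 40, were less uniform; 66 had a row in the table. Of the 59 tested against HEL neg cells in BCL2 HEL pos cells 37 were lower and 0 higher, with a median of −1.30, and of the 61 tested in HEL pos cells 13 were lower and 0 higher, with a median of −0.85. Among all genes tested, 8.10% and 5.22% were called lower in these comparisons. Cdca3, which triggers entry into mitosis, Spc24, a subunit of the Ndc80 complex, and Cdca8, the passenger protein borealin, were at −3.59 ± 0.31, −3.39 ± 0.34 and −2.56 ± 0.28 in BCL2 HEL pos and −3.41 ± 0.52, −2.21 ± 0.39 and −1.99 ± 0.36 in HEL pos cells. In BCL2 HEL pos against HEL pos cells 5 of 54 were lower and 1 higher in PP, 2 lower and 1 higher in mLN, and 5 lower and 1 higher in spleen. The all-gene shares called lower were 4.74% in PP, 5.90% in mLN and 4.82% in spleen. The gene that was higher was Cdc25b, the phosphatase that activates Cdk1, in each tissue. It had 51.7 to 70.3 CPM in BCL2 HEL pos and 26.3 to 33.4 CPM in HEL pos PP libraries (1.00 ± 0.20, adjusted p = 0.00400), and 102 to 134 CPM in BCL2 HEL pos and 46.7 to 55.3 CPM in HEL pos spleen libraries (1.21 ± 0.20, adjusted p = 5.01e-04). Its HEL neg levels were 144 CPM in PP, 108 CPM in mLN and 103 CPM in spleen.

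Some of these counts are less certain than others. Exons of 13 of the 40 genes overlap those of another gene in the GENCODE annotation of GRCm38, 11 of them on the opposite strand, and the labels do not state whether counting used the strand. The longest overlaps were 1271 bases of Kif20a with Cdc23, 911 bases of Prc1 with Rccd1, 832 bases of Kif4 with Pdzd11, 592 bases of Ube2c with Tnnc2 and 510 bases of Ccna2 with Exosc9. Pseudogenes named for Ccnb1, Ccnb2, Kif22 and Kif4 could share reads with them.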

How the data were processed

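RNA of sorted B cells was sequenced, per the labels' protocols, which name a TruSeq and a Nextera XT kit. The submitters' processing notes name STAR, HTSeq, DESeq2 and mm10 without versions or roles, and no source states the strand setting of the counting. The deposited values are raw counts per gene symbol, whole numbers summing to 5475131 to 11340876 per library.

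From these counts, CPM with TMM factors and quasi-likelihood tests were computed with edgeR 4.0.16 (R 4.3.3), after filterByExpr, with Benjamini-Hochberg adjustment over all genes tested and a threshold of 0.05. One fit held the 18 libraries of both HEL pos kinds in 6 groups (12 residual degrees of freedom). Each comparison with HEL neg cells had 12 libraries and tissue as covariate (8 residual degrees of freedom). In the fits with HEL neg cells, libraries of the same name from different tissues counted as separate replicates, with no block for the name. The p-values of these fits may therefore be too small, which was not tested. The fit of 18 libraries had no block either, and for its comparisons between tissues a block was fitted as an alternative. The scripts were tested on simulated data. DESeq2 1.42.0, DESeq2 size factors, no filter, the compared libraries alone, a block for library number, and leaving out libraries were alternatives. The smallest groups hold 1 or 3 libraries, and nothing in the labels says that libraries came from separate mice, so p-values cover library-to-library spread alone, possibly technical. Numbers recur across tissues (392 in all 3, for instance), and HEL neg cells have 1 pool per tissue. Same-numbered libraries deviated together in every pair (correlations above 0.1) for PP with spleen in HEL pos cells (0.104 to 0.243) and for mLN with spleen in BCL2 HEL pos cells (0.101 to 0.184), so the number was taken to pair the libraries in those comparisons, from the data and not from the labels. The adjusted p-values of single genes in those comparisons come from the fit without the block, and counts with the block are given beside those without it. Replicates differed beyond counting noise (chi-square per degree of freedom of 8.56 to 55.3).

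Values are given in every group for the member of each role with the highest mean CPM, for Mki67, Cdk1 and Foxm1, and for up to 4 called members per comparison with the smallest p; other lists give up to 4 called genes; members with smaller roles in the text are given by their fold changes. The members and lists were chosen with earlier results of these data known. Sequences are from RefSeq (GRCm38.p6). Intervals cover counting error only.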

Additional observations from a re-analysis of the deposited data

How the results depend on the processing

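Counts of called mitosis genes depended on the setting. PP against spleen, HEL pos (2): replicate block 4, compared libraries alone 1, no pooled HEL pos libraries 1, no PP HEL pos 399 and Pool 0, 1 library left out 1 to 5. The mLN against spleen, HEL pos, count (2) became 1 without pooled libraries and 1 to 2 with 1 library left out. PP against mLN, HEL pos (2), gave 1 with the compared libraries alone, 1 without pooled libraries, 0 without PP HEL pos 399 and Pool, and 0 to 2 with 1 left out. PP against spleen, BCL2 HEL pos (0), gave 1 with DESeq2, 1 without PP HEL pos 399 and Pool, and 0 to 1. For mLN against spleen, BCL2 HEL pos (1), DESeq2 gave 2, no filter 0, the replicate block 2, the compared libraries 2, no pooled libraries 0, no PP HEL pos 399 and Pool 2, and leaving 1 out 0 to 2. BCL2 HEL pos against HEL pos in PP (0) gave 4 with DESeq2, 1 with DESeq2 size factors, 5 without a filter, 2 without pooled libraries and 0 to 2; in mLN (2) 4 with the compared libraries, 0 without pooled libraries and 0 to 3; in spleen (3) 8 with DESeq2, 6 without a filter, 8 with the compared libraries, 1 without pooled libraries, 7 without PP HEL pos 399 and Pool and 0 to 7 (0 without spleen HEL pos Pool or spleen BCL2 HEL pos 926, 7 without PP HEL pos 399). HEL pos against HEL neg (29) gave 7 with only the pooled HEL pos libraries, an alternative chosen after seeing the data that leaves 6 libraries, and 9 to 32 with 1 left out; DESeq2 called 35. Over all genes that comparison called 990, against 1551 with DESeq2, 1495 without a filter and 73 with the pools. BCL2 HEL pos against HEL neg (38) ran from 33 to 39 over all alternatives. The summed ratio in PP of BCL2 HEL pos over HEL neg was 0.164 with plain totals and 0.196 from mean log2 levels, over HEL pos 0.780 with plain totals; in spleen over HEL pos it was 0.577 to 0.710 with 1 library left out. Cenpa in BCL2 HEL pos against HEL neg ran from −0.29 to 0.00932 with 1 library left out, the higher value without the PP HEL neg library. Where not given here, the causes were not tested.

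Of the 18 pairs of same-numbered libraries, 13 correlated above 0.1 in their deviations, and 17 of 18 libraries correlated best with their own number; outside the 2 comparisons with a block in the report, at least 1 pair was at or below 0.1 (down to 0.0204), and there the replicate block changed no count of called mitosis genes. No block could be fitted between BCL2 HEL pos and HEL pos cells, which share no library name, nor between BCL2 HEL pos and HEL neg cells. HEL pos and HEL neg cells share the name Pool, and no block was fitted in that comparison. Counting limits genes with few counts: the BCL2 HEL pos medians of Bub1, Kif2c, Kif4, Spag5 and Anln, at 0 to 0.420 CPM, rest on 3 counts or fewer.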

Other observations

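Transcriptional regulators of the mitosis genes were a mixed group. Of 19 genes of the MuvB core, the E2F family and the DREAM complex, 7 were lower in BCL2 HEL pos and 4 in HEL pos than in HEL neg cells, and 0 were higher in either. The all-gene shares called lower were 8.10% and 5.22%. Mybl2, for B-Myb, had 0.926 to 3.91 CPM in BCL2 HEL pos and 0 to 9.06 CPM in HEL pos libraries, against 13.9 to 34.7 CPM in HEL neg libraries (−3.06 ± 0.35, adjusted p = 1.93e-05, and −2.04 ± 0.57, adjusted p = 0.0384). Tfdp1, the dimer partner of the E2F factors, had 7.64 to 21.1 CPM in BCL2 HEL pos and 26.1 to 44.3 CPM in HEL pos libraries, which did not overlap. It was lower in BCL2 HEL pos than in HEL pos cells in all 3 tissues, at −1.06 ± 0.21 in PP (adjusted p = 0.00361), −1.21 ± 0.21 in mLN (adjusted p = 8.68e-04) and −1.94 ± 0.22 in spleen (adjusted p = 1.39e-05).

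Uhrf1, which keeps DNA methylation at replication forks, had 7.87 to 25.0 CPM in BCL2 HEL pos libraries, against 21.9 to 89.9 CPM in HEL pos libraries. Within tissues it was lower in BCL2 HEL pos cells, at −1.08 ± 0.22 in PP (adjusted p = 0.00444), −1.90 ± 0.22 in mLN (adjusted p = 1.90e-05) and −2.57 ± 0.24 in spleen (adjusted p = 8.24e-07). Cdt1, the replication licensing factor, was higher in BCL2 HEL pos than in HEL pos cells of PP (0.88 ± 0.15, adjusted p = 9.64e-04) and spleen (0.75 ± 0.15, adjusted p = 0.00200).

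Of 17 condensin and cohesin genes, 6 were lower in BCL2 HEL pos and 3 in HEL pos than in HEL neg cells, with medians of −0.21 and −0.27. Among all genes tested, 8.10% and 5.22% were called lower in these comparisons. Ncapg and Ncapg2, subunits of the condensin complexes, were called in both. Ncapg had 0.116 to 2.96 CPM in BCL2 HEL pos and 0.844 to 5.78 CPM in HEL pos libraries, against 11.4 to 19.1 CPM in HEL neg libraries. Of 14 APC/C subunits and inhibitors, 1 was lower in BCL2 HEL pos than in HEL neg cells (Fzr1, an activator, −0.33 ± 0.11, adjusted p = 0.0487) and 0 were called in HEL pos cells (1 at an unadjusted p under 0.05). The same all-gene shares of 8.10% and 5.22% apply, so this count is no result about the APC/C genes.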
